A study of Rattus norvegicus with 10 samples.

Results

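Kidneys of choline-deficient rats fed fish oil were compared with kidneys of choline-deficient rats fed vegetable oil that were labelled necrotic. The 4 arrays of the comparison, 2 a side, are among 10 arrays of kidney RNA in 5 groups of 2. All animals were male weanling Wistar rats killed after 6 days on their diet, and each array held 1 pool of 3 animals. The deficient fish oil kidneys came from a choline-deficient diet with menhaden oil as its fat. The necrotic kidneys came from a choline-deficient diet with corn and hydrogenated vegetable oils, and the other deficient vegetable oil kidneys, from the same diet, carry no necrosis label. Control kidneys came from choline-supplemented diets with either fat. How kidneys were sorted as necrotic is not stated. No fish oil group was labelled necrotic, so the oil and the sorting cannot be told apart in this comparison. The labels name no genetic change in any group, both sides of the comparison were on choline-deficient diets, and a pool hides the differences between its 3 animals.

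Choline is needed to make phosphatidylcholine, and as betaine it donates methyl groups. Weanling rats deprived of it develop tubular necrosis of the renal cortex within days. Injured tubule cells lose the transporters and enzymes of the mature nephron, switch on injury and repair genes such as Havcr1 (kidney injury molecule 1), and draw in phagocytes. Fish oil carries long-chain omega-3 fatty acids, which are ligands of PPAR alpha, a nuclear receptor that switches on fatty acid oxidation.

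The deficient fish oil kidneys differed widely from the necrotic ones. Of 29214 probe sets, 2701 were higher and 3062 were lower at an adjusted p under 0.05, together 19.7% of those tested. At least 4-fold differences passed this test for 253 probe sets in the higher and 209 in the lower direction. Counted once per gene, 13.1% of 14506 named genes were higher and 14.2% were lower, which is the background against which the gene lists are read. The median log2 difference over all probe sets was -0.01. Centring each array on its own median moved this median to 0.10 and the share of higher calls from 46.9% to 60.4%. Leaving out deficient fish oil replicate 1 lowered the count of calls to 3380, and leaving out replicate 2 lowered it to 3324. All differences below are log2 differences of deficient fish oil minus necrotic kidneys with the moderated standard error, n = 2 pools a side, unless another comparison is named. A p-value here measures the spread between pools of animals.

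The 10 arrays had close medians, between 7.28 and 7.43 on the log2 scale, and the replicates of each group correlated at 0.99 or above over probe sets. The first principal component held 54.2% of the variance and placed the necrotic arrays at -71.4 and -73.3, apart from the other 8, which lay between -20.2 and 35.5. The deficient fish oil arrays lay at 24.4 and 26.5, between the extremes of the 4 control arrays (20.8 to 35.5). On the second component they lay at 16.2 and 4.1, the control fish oil arrays at 23.4 and 9 and the control vegetable oil arrays at -26.6 and -30.6. The necrotic arrays lay there at 15.8 and -15.7, and the other deficient vegetable oil arrays at -8.3 and 12.7. Kidney markers were bright on these arrays, by their mean over all arrays. The proximal tubule phosphate transporter Slc34a1 stood at the 99.1 percentile of all probe sets, named or not. The thick ascending limb protein Umod stood at 98.8 and the collecting duct water channel Aqp2 at 97.8. Of the other defining markers, the podocyte gene Nphs1 stood at 68.8, the T cell gene Cd3e at 30.9, the neutrophil gene S100a8 at 6.5 and the adrenal gene Cyp11b1 at 6.7.

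The falls included the classic markers of tubular injury. Of 29 measured genes of tubular injury, 26 fell and 0 rose, with a median difference of -1.49. Havcr1, a phagocytic receptor that injured proximal tubule cells display, measured 13.24 and 13.53 in the necrotic kidneys and 9.30 and 7.22 in the deficient fish oil kidneys, without overlap. The difference was -5.13 ± 0.60 (SE, n = 2 pools a side, adjusted p = 0.00063), a 34.9-fold lower level. Both deficient fish oil arrays still lay above all 4 control arrays, which ran from 6.37 to 6.67, and replicate 1 was the higher of them. Lcn2, an iron-carrier protein secreted by damaged tubules, had a mean of 13.13 in the necrotic kidneys against 10.26 and 9.34 on the deficient fish oil arrays, a difference of -3.34 ± 0.31 (adjusted p = 0.00021). Timp1, an inhibitor of matrix proteases, fell (-3.14 on the log2 scale), as did the hyaluronan receptor Cd44 (-2.66), the cytokine Il24 (-2.58) and the secreted chaperone Clu (-2.52). Spp1, the matrix protein osteopontin, measured 14.21 and 14.23 in the necrotic kidneys, near the top of the scale, against 12.98 and 12.35, a difference of -1.55 ± 0.20 (adjusted p = 0.00088). Of Gdf15, Plau and Krt20, the members that were not called, Krt20 differed by -0.26.

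**Figure D1:**
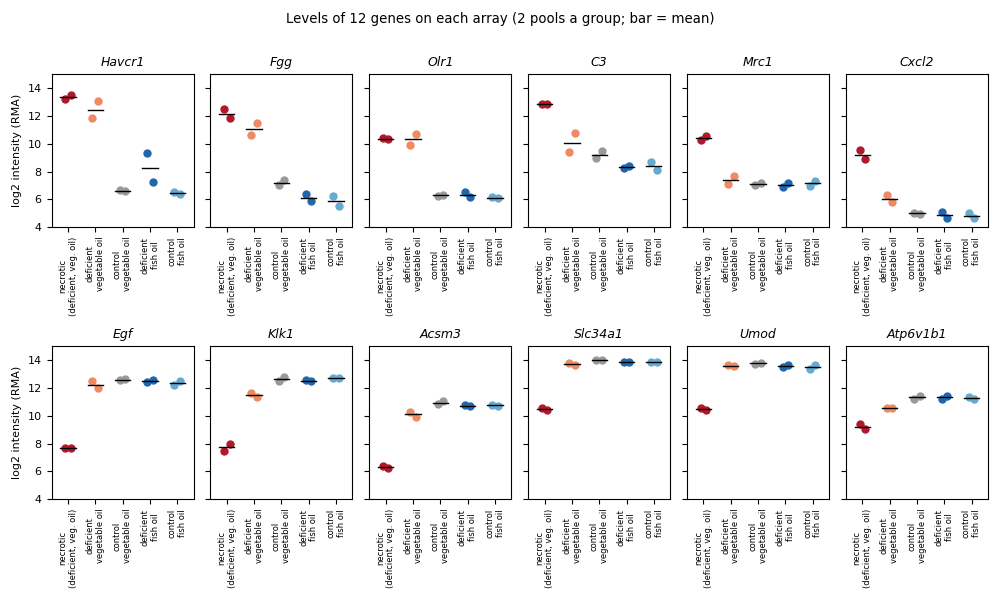
Log2 intensity (vertical axis) of 12 genes on each of the 10 arrays, by group (horizontal axis); each point is 1 pool of 3 animals and each bar is the mean of 2. Havcr1, Fgg and Olr1 were higher on all 4 deficient vegetable oil arrays, necrotic or not, than on the other 6, while Egf, Slc34a1 and Umod were low on the necrotic arrays only.

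Acute phase proteins and fibrinogen chains gave the most negative differences of all. Of 18 measured members 9 fell and 1 rose, with a median of -0.79. Fgg, the gamma chain of fibrinogen, measured 12.47 and 11.82 in the necrotic kidneys and 6.36 and 5.84 in the deficient fish oil kidneys. That difference of -6.04 ± 0.36 (adjusted p = 4.2e-05) was the most negative of all named genes, and the deficient fish oil arrays lay within the control range; the deposited values give no background level, so no fold is given for it. The beta chain Fgb differed by -4.19 ± 0.34 (adjusted p = 0.00012). For the alpha chain Fga the difference was -2.82 ± 0.17, and both deficient fish oil arrays, 9.69 and 9.29, lay above the 4 control arrays. Serpina3n, a protease inhibitor, measured 13.13 and 12.59 against 8.13 and 6.99 (difference -5.30 ± 0.68, adjusted p = 0.00097). The broad protease trap A2m fell (-4.31), as did the lipopolysaccharide carrier Lbp (-3.60). Haptoglobin, Hp, which liver secretes in the same response, differed by -0.43 ± 0.44 (adjusted p = 0.58).

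Complement and clotting genes were also lower in part. Of 13 complement genes 7 fell and 0 rose, and of 18 coagulation and fibrinolysis genes 8 fell and 1 rose. The complement genes C1qa, C1qb and C1qc, counted with the macrophage markers instead, fell too (-2.16, -2.12 and -2.49). C3, the central component from which all complement pathways run, measured 12.84 and 12.87 in the necrotic kidneys and 8.25 and 8.40 in the deficient fish oil kidneys, with no overlap. Its difference was -4.53 ± 0.40 (adjusted p = 0.00016), and the receptors of its and C5's small fragments, C3ar1 and C5ar1, fell (-1.55 and -2.31). Among clotting genes, the fibrin cross-linking subunit F13a1 fell (-2.33), as did the inhibitor Tfpi2 (-1.83), the urokinase receptor Plaur (-1.67) and the protein C receptor Procr (-1.38). The kallikrein and kinin list was split, with 4 of 11 members higher and 3 lower. Klk1, the tissue kallikrein made in the connecting tubule, rose, whereas the kininogen genes Kng1 and Kng2 differed by -2.12 and -1.32. A dimmer probe set of Kng1 gave -0.82 (adjusted p = 0.105), so its probe sets do not give the same call.

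Phagocyte genes were lower as a group. Of 24 macrophage markers 19 fell and 0 rose, with a median of -1.75, and of 15 neutrophil markers 7 fell and 0 rose, with a median of -0.79. In whole kidney RNA, fewer cells of a type and less RNA per cell cannot be told apart. The mannose receptor Mrc1 measured 10.29 and 10.55 in the necrotic kidneys and 6.88 and 7.19 in the deficient fish oil kidneys, a difference of -3.39 ± 0.22 (adjusted p = 5.1e-05). Gpnmb, a membrane protein of lipid-laden macrophages, fell (-3.72), as did the lysosomal marker Cd68 (-2.87), the integrin Itgam (-2.82) and the haemoglobin scavenger receptor Cd163 (-2.81). Among neutrophil genes Trem1 fell (-3.04), as did the decoy receptor Il1r2 (-3.02), the chemokine receptor Cxcr2 (-2.50) and the calprotectin subunit S100a9 (-2.31). The other subunit, S100a8, was dim throughout and differed by -0.79 (adjusted p = 0.06). The granule genes Elane and Mpo differed by -0.33 and 0.20 and were not called. Summed over the macrophage list, log2 intensity was 15.29 and 15.30 in the necrotic kidneys, 13.41 and 13.59 in the deficient fish oil kidneys and 13.43 to 13.75 in the controls. The part of phagocytes in the falls of cytokine, complement and matrix genes was not tested. Of 16 lymphocyte markers 1 was higher and 0 were lower, with a median of -0.04 that turned positive after median centring.

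Olr1, the lectin-like receptor for oxidised LDL found on endothelium and macrophages, gave a clear separation. It measured 10.40 and 10.32 in the necrotic kidneys and 6.50 and 6.17 in the deficient fish oil kidneys, a difference of -4.02 ± 0.23 (adjusted p = 3e-05). Olr1 in the deficient vegetable oil kidneys without the necrosis label was 9.94 and 10.71, spanning the necrotic arrays.

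Cytokine and chemokine genes fell in part. Of 20 chemokines and their receptors 9 fell and 1 rose, of 17 genes of NF-kB and interleukin 1 signalling 11 fell and 0 rose, and of 15 genes of the interleukin 6 family and its feedback 9 fell and 1 rose. Cxcl2, which attracts neutrophils, measured 9.54 and 8.90 in the necrotic kidneys and 5.07 and 4.67 in the deficient fish oil kidneys, a difference of -4.35 ± 0.25 (adjusted p = 3.6e-05). Ccl3 fell (-3.26), as did its receptor Ccr1 (-2.59). The monocyte attractant Ccl2 differed by -2.15 ± 0.67 (adjusted p = 0.055), and its deficient fish oil arrays were far apart, at 11.36 and 9.50. Socs3, the feedback inhibitor that STAT3 induces, fell (-2.82), as did the cytokine Lif (-2.65) and the oncostatin M receptor Osmr (-2.56). Il6 itself differed by -0.94 (adjusted p = 0.054). In the interleukin 1 list the antagonist Il1rn fell (-2.45), as did the pentraxin Ptx3 (-2.02), the NF-kB cofactor Nfkbiz (-1.96), the receptor Il1r1 (-1.87) and Birc3 (-1.81). Interferon and antigen presentation genes moved little: 7 of 26 were lower and 1 was higher, and without either deficient fish oil array 2 remained called lower, and without either necrotic array 3. Psmb8, an inducible proteasome subunit, fell by 1.12.

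Matrix genes were among the most uniform lists. Of 20 collagens and matrix glycoproteins 18 fell and 0 rose, with a median of -1.87, and of 19 matrix proteases and their inhibitors 14 fell and 1 rose. The proteoglycan Vcan fell (-2.85), as did the fibrillar collagen chains Col1a1 and Col1a2 (-2.70 and -2.36), Col12a1 (-2.41) and the collagen cross-linking oxidase Lox (-2.28). Col1a1 measured 12.00 and 12.49 in the necrotic kidneys against 9.47 and 9.61, without overlap. The epithelial protease Mmp7 fell (-3.38), as did the aggrecanase Adamts1 (-2.60). Of 20 genes of TGF beta and activin signalling 9 fell and 2 rose. There the activin subunit Inhba fell (-2.64), as did Tgfb3 (-2.39), the target gene Ccn2 (-1.73) and Tgfb1 (-1.50).

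Cell cycle genes were lower almost throughout. Of 34 members 30 fell and 0 rose, with a median of -1.77. Rrm2, the ribonucleotide reductase subunit that makes building blocks for DNA, measured 10.62 and 11.00 in the necrotic kidneys and 7.62 and 7.32 in the deficient fish oil kidneys, a difference of -3.34 ± 0.31 (adjusted p = 0.0002). The mitotic kinases Plk1 and Aurkb fell (-2.55 and -2.53), as did cyclin Ccna2 (-2.46) and the topoisomerase Top2a (-2.36). The list was not low against every control. In the 4 vegetable and fish oil control arrays Rrm2 measured 10.10, 9.54, 7.63 and 7.26, so the deficient fish oil kidneys sat with the control fish oil kidneys. The list's median difference of control fish oil minus control vegetable oil was -1.07, with 1 of 34 members called, and that of deficient fish oil minus control fish oil was 0.03.

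Stress-response genes fell less evenly. Of 26 immediate early genes 15 fell and 0 rose, with a median of -0.74. Atf3, a transcription factor induced by many kinds of stress, measured 9.94 and 10.27 in the necrotic kidneys and 7.89 and 7.24 in the deficient fish oil kidneys (difference -2.54 ± 0.24, adjusted p = 0.00025). Junb fell (-1.62), as did Klf6 (-1.58), Ier3 (-1.29) and Myc (-1.20), while Egr1 differed by -0.76 (adjusted p = 0.17). Of 26 p53 targets and cell death genes 15 fell and 1 rose, among them the necroptosis kinase Ripk3 (-2.05), the inflammatory caspase Casp4 (-1.75), Bcl2a1 (-1.41) and the cell cycle inhibitor Cdkn1a (-1.38). This count dropped to 9 without deficient fish oil replicate 1, to 7 without its replicate 2 and to 9 without necrotic replicate 1. The unfolded protein and ATF4 list was split, with 10 of 29 lower and 5 higher; without deficient fish oil replicate 2, 7 were lower and 2 higher. The most negative were the amino acid transporter Slc7a5 (-2.71), Mthfd2 (-1.71), Trib3 (-1.54), asparagine synthetase Asns (-1.50) and the transporter Slc7a1 (-1.43). The serine and glycine enzymes Psat1 (0.90), Shmt2 (0.86) and Psph (0.78) were higher, but the call of Psph was kept in 1 of the 4 fits that left out an array of the comparison. The chaperone Hspa5 differed by -0.32 and was not called. Of 15 heat shock genes 6 rose and 1 fell, with Chordc1 (1.45), Hspd1 (0.98) and Dnaja1 (0.94) among the rises, but 4 and 3 rises were left without deficient fish oil replicate 1 and 2.

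**Figure D2:**
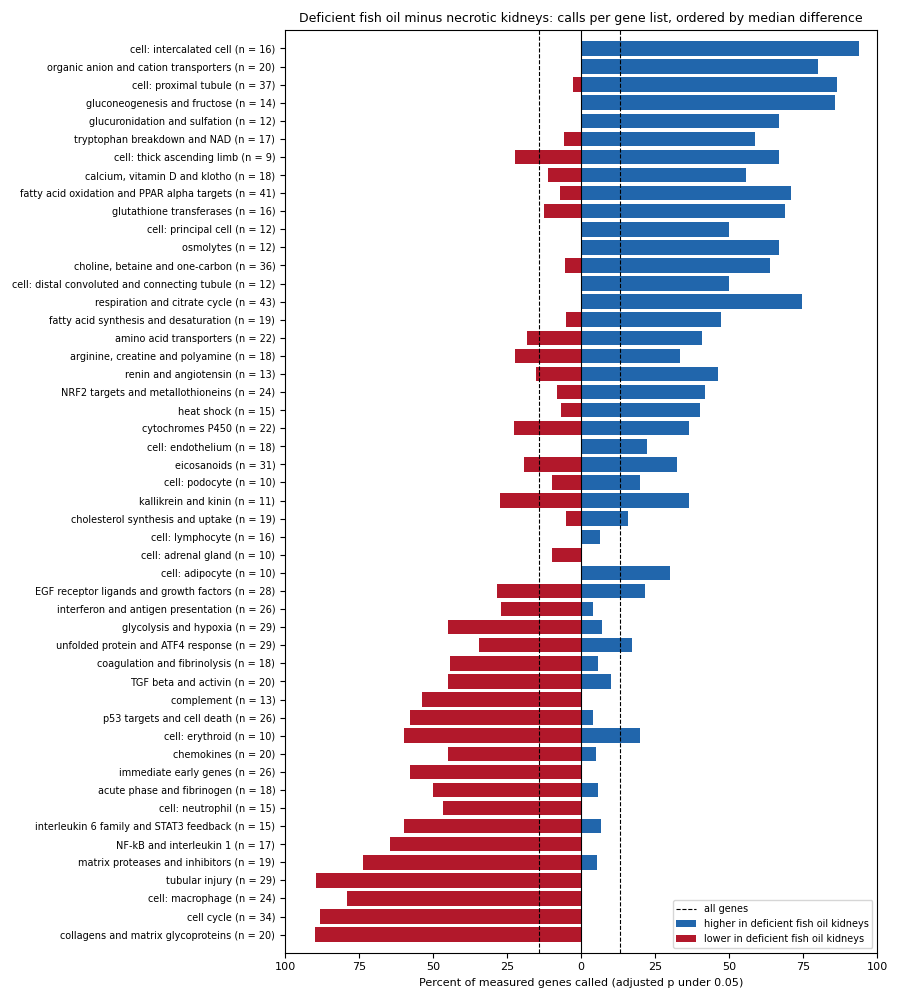
Percent of the measured genes of each of 50 lists (rows, ordered by median difference) that were higher (bars to the right) or lower (bars to the left) in deficient fish oil than in necrotic kidneys. Dashed lines mark the percent over all named genes, 13.1 higher and 14.2 lower. Collagens, cell cycle, macrophage and tubular injury genes lie at the lower end, and intercalated cell, transporter and proximal tubule genes at the upper end.

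The rises were led by genes of the working nephron. Of 37 proximal tubule markers 32 rose and 1 fell, with a median of 1.59. Slc34a1, which reclaims phosphate, measured 10.58 and 10.43 in the necrotic kidneys and 13.84 and 13.88 in the deficient fish oil kidneys, a difference of 3.36 ± 0.11 (adjusted p = 2.6e-06). The second phosphate carrier Slc34a3 rose by 3.67, the inositol oxidase Miox by 4.04, the amino acid carrier Slc7a13 by 3.64 and the medium-chain acyl-CoA synthetase Acsm3 by 4.43. Acsm3 measured 6.37 and 6.22 in the necrotic kidneys and at least 9.94 on each of the other 8 arrays. Another defining marker, the endocytic receptor Cubn, was not called: it measured 12.77 and 12.65 in the necrotic kidneys and 12.69 and 12.94 in the deficient fish oil kidneys, a difference of 0.10 ± 0.12 (adjusted p = 0.66). Its partner Lrp2, the receptor megalin, rose by 1.13. Slc2a2, the basolateral glucose carrier, differed by -0.73 and was the single member called lower, a call that was kept in 1 of the 4 fits that each left out 1 array.

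Further along the nephron most lists also rose. Of 9 thick ascending limb genes 6 rose and 2 fell, of 12 genes of the distal convoluted and connecting tubule 6 rose and 0 fell, and of 12 principal cell genes 6 rose and 0 fell. Umod, the most abundant urinary protein, measured 10.57 and 10.40 in the necrotic kidneys and 13.51 and 13.64 in the deficient fish oil kidneys, a difference of 3.09 ± 0.13 (adjusted p = 8.8e-06). The calcium-sensing receptor Casr rose by 2.54, the chloride channel subunit Bsnd by 1.57, the potassium channel Kcnj1 by 1.44 and the target of loop diuretics, Slc12a1, by 0.92. Egf, the epidermal growth factor precursor of the distal nephron, measured 7.68 and 7.67 in the necrotic kidneys and 12.42 and 12.56 in the deficient fish oil kidneys. That is a difference of 4.81 ± 0.17 (adjusted p = 3.5e-06), 28.1-fold, and all other 8 arrays lay at 12.01 or above. Klk1 rose by 4.80, the calcium-binding proteins Calb1 and S100g by 4.05 and 3.46, and the thiazide-sensitive carrier Slc12a3 by 2.95. In the principal cell list Kcnj10 rose by 1.85, the vasopressin receptor Avpr2 by 1.26, Hsd11b2 by 1.02 and the sodium channel subunit Scnn1g by 0.99, and Aqp2 differed by 0.88 ± 0.29 (adjusted p = 0.068).

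Genes of intercalated cells, which secrete acid or base in the collecting duct, had the highest share of rises. Of 16 members 15 rose and 0 fell, with a median of 1.80. The proton pump subunit Atp6v1b1 measured 9.37 and 9.07 in the necrotic kidneys and 11.23 and 11.41 in the deficient fish oil kidneys, a difference of 2.10 ± 0.14 (adjusted p = 5.7e-05). The anion exchangers Slc26a7 and Slc26a4 rose by 2.84 and 2.31, the ammonia channel Rhcg by 2.39, Hepacam2 by 2.32 and Car15 by 2.11. Of 18 endothelial genes 4 rose and 0 fell, with Tek at 1.14, Kdr at 0.88 and Emcn at 0.66. Of 10 podocyte genes 2 were higher and 1, Nes (-1.21), was lower, and neither higher call held when deficient fish oil replicate 2 or necrotic replicate 1 was left out. Red cell genes were split, with 6 of 10 lower and 2 higher. Ahsp, Alas2 and Hemgn, made in red cell precursors, had differences of -2.20, -1.67 and -1.48, while Tfrc and Slc4a1, which other cells also make, rose by 1.90 and 1.10; after median centring, without deficient fish oil replicate 1 or without necrotic replicate 1, 3 members were lower. Genes of tissue next to the kidney were also read. Of 10 adipocyte genes 3 were higher and 0 lower, none of them in the fits without deficient fish oil replicate 1 or necrotic replicate 2, and the defining markers Adipoq and Plin1 differed by -0.29 and -0.02. Of 10 adrenal genes 1 was lower.

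**Figure D3:**
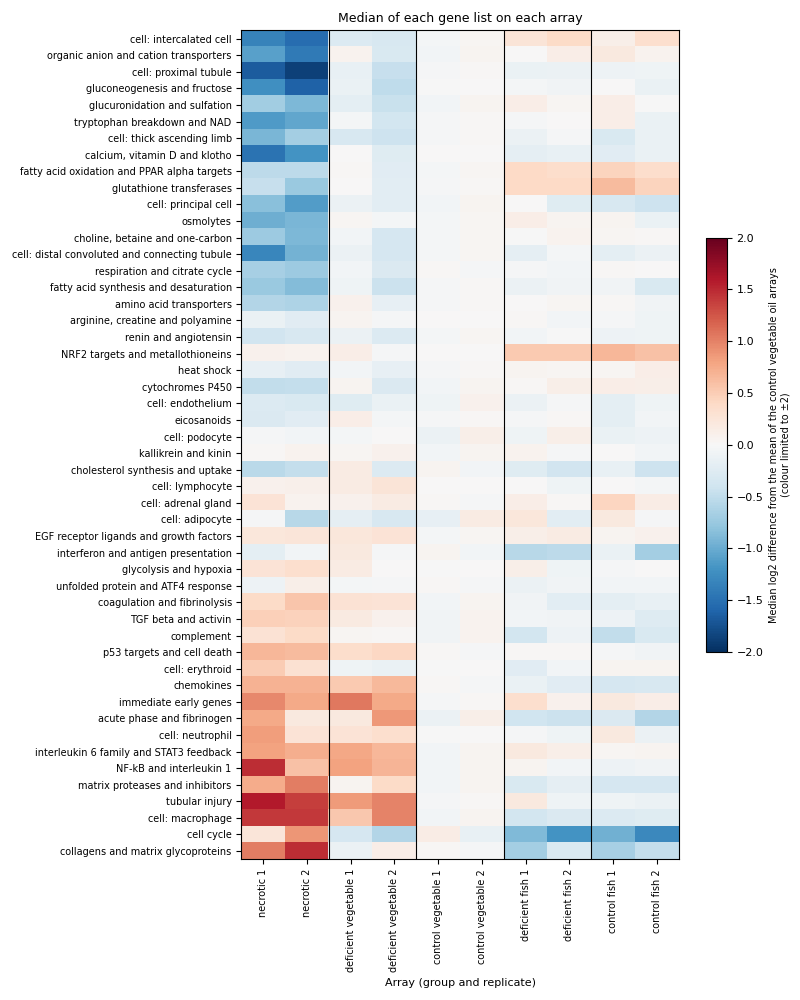
Median log2 difference of each of 50 lists (rows) on each of the 10 arrays (columns) from the mean of the control vegetable oil arrays; red is higher, blue lower, and colour is limited to 2 log2 units. The necrotic arrays stand apart in most rows. In the cell cycle, NRF2, glutathione transferase and fatty acid oxidation rows, among others, the 4 fish oil arrays also differ from control vegetable oil arrays.

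Genes of energy metabolism were mostly higher in the deficient fish oil kidneys. Of 41 genes of fatty acid oxidation and PPAR alpha targets 29 rose and 3 fell, with a median of 0.88. In control fish oil minus control vegetable oil the list's median was 0.40, with 2 of 41 members called higher and 0 lower. These were Vnn1 and Angptl4, and Angptl4 was called lower in the main comparison. In the 4 fits that each left out 1 control array, the control oil call of Vnn1 was kept in 0 and that of Angptl4 in 1. The peroxisomal enzyme Ehhadh measured 10.65 and 10.17 in the necrotic kidneys and 13.49 and 13.38 in the deficient fish oil kidneys, a difference of 3.02 ± 0.19 (adjusted p = 4.8e-05). Acsl1, which activates fatty acids, rose by 2.47, the omega-hydroxylase Cyp4a1 by 2.32, Acox2 by 2.16 and the receptor Ppara itself by 2.07. The members called lower were the uncoupling protein Ucp2 (-1.50), the lipid droplet coat Plin2 (-1.32) and the lipase inhibitor Angptl4 (-0.84). Of the 4 fits that left out an array of the comparison, the call was kept in 4 for Ucp2, 2 for Plin2 and 0 for Angptl4. Cpt1a, the gatekeeper of mitochondrial import, differed by 0.16 ± 0.14 (adjusted p = 0.53). Of 43 respiration and citrate cycle genes 32 rose and 0 fell, with a median of 0.67, smaller in size than the tubule lists. Ndufs1 rose by 1.29, Mdh1 by 1.18, Sucla2 by 1.17, Suclg1 by 1.09 and Sdha by 1.07. The count fell to 20 without deficient fish oil replicate 1 and was 22 to 27 without any other array of the comparison.

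Glucose genes moved in opposite directions. Of 14 genes of gluconeogenesis and fructose use 12 rose and 0 fell, with a median of 1.34, while of 29 genes of glycolysis and hypoxia 13 fell and 2 rose. Pck1, which commits the kidney to making glucose, measured 12.19 and 10.64 in the necrotic kidneys, wide apart, and 13.58 and 13.63 in the deficient fish oil kidneys, a difference of 2.19 ± 0.40 (adjusted p = 0.0052). The fructose enzymes Tkfc and Khk rose by 2.93 and 2.47, pyruvate carboxylase Pc by 2.64 and glucose-6-phosphatase G6pc1 by 1.99. On the other side, the lactate exporter Slc16a3 fell (-3.57), as did Adm (-2.06), hexokinase Hk2 (-1.72) and pyruvate kinase Pkm (-1.37), whereas Pfkfb4 rose by 2.33. Without deficient fish oil replicate 2 the count of glycolysis and hypoxia genes that fell was 7. Gapdh and Tpi1, steps of glycolysis that all cells run, differed by 0.00 and were not called.

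Genes that handle choline and its methyl groups rose in the main, though both groups were choline-deficient. Of 36 members 23 rose and 2 fell, with a median of 0.74. Bhmt, which uses betaine to remake methionine, measured 9.49 and 8.31 in the necrotic kidneys and 12.06 and 11.72 in the deficient fish oil kidneys, a difference of 2.99 ± 0.42 (adjusted p = 0.0014). The creatine-making enzyme Gamt rose by 2.73, the glycine methyltransferase Gnmt by 2.70, and Cbs and Cth, which turn homocysteine into cysteine, by 2.38 and 2.34. Choline kinase Chka differed by -0.08 and choline dehydrogenase Chdh by 0.57 (adjusted p = 0.079), and neither was called. Many of these enzymes are made in the proximal tubule, whose marker list had a median of 1.59 here and a summed intensity of 16.69 and 16.56 (log2) in the necrotic and 17.98 and 18.05 in the deficient fish oil kidneys. What part the tubule cells had in these rises was not tested. Of 12 osmolyte genes 8 rose and 0 fell, led after Miox by Akr1b10 (3.61), Sord (2.15) and Slc5a11 (1.98), and 5 rose without deficient fish oil replicate 1 or without either necrotic array. Of 17 genes of tryptophan breakdown and NAD 10 rose and 1 fell. Acmsd, the branch-point enzyme that diverts tryptophan carbon from NAD, measured 7.57 and 7.92 in the necrotic kidneys and 12.12 and 12.08 in the deficient fish oil kidneys, a difference of 4.35 ± 0.25. Kmo rose by 3.09, Kynu by 2.76, Haao by 2.55 and Kyat3 by 2.02.

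Mineral, amino acid and drug carriers followed. Of 18 genes of calcium, vitamin D and klotho 10 rose and 2 fell. Kl, the co-receptor for the phosphate hormone FGF23, measured 9.94 and 10.11 in the necrotic kidneys and 11.99 and 12.00 in the deficient fish oil kidneys, a difference of 1.98 ± 0.17 (adjusted p = 0.00014). Cyp27b1, which activates vitamin D, rose by 1.59, and Cyp24a1, which degrades it, fell (-2.41). Of 20 organic anion and cation carriers 16 rose and 0 fell, with a median of 1.62. Slco1a6 rose by 4.42, the organic anion carriers Slc22a8 and Slc22a6 by 2.80 and 2.41, and the peptide carriers Slc15a1 and Slc15a2 by 2.52 and 2.18. Amino acid carriers were split, with 9 of 22 higher and 4 lower. The apical carriers of tubule cells, Slc7a13 and Slc6a19 (2.83), and the glutamine carrier Slc38a3 (1.80) rose, while Slc7a11 (-2.94), the cystine carrier, fell together with Slc7a5 and Slc7a1. Among arginine and creatine genes, 6 of 18 rose and 4 fell. Lower calls numbered 2 without deficient fish oil replicate 2, without necrotic replicate 1 and without necrotic replicate 2, and median centring gave 9 higher and 2 lower. Nos2 and Arg1, which phagocytes also use, fell (-2.82 and -2.38), and Agmat and Oat rose by 2.50 and 1.76.

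Signalling lists held members of both directions. Of 28 growth factor genes 6 rose and 8 fell, and 5 fell without deficient fish oil replicate 1 or without either necrotic array. Apart from Egf, the other ligands of its receptor that moved furthest, Areg (-1.43), Ereg (-1.42) and Hbegf (-1.40), were lower, and Igfbp5 (1.33) was higher. Of 31 eicosanoid genes 10 rose and 6 fell, with Ephx2 (2.43), Cyp4a1 and Ephx1 (1.92) higher and the secreted phospholipase Pla2g2a (-2.26) lower. The cyclooxygenases Ptgs1 and Ptgs2 differed by 0.31 and 0.26 and were not called. Of 13 renin and angiotensin genes 6 rose and 2 fell. Agt, the angiotensin precursor, fell by 1.28. Anpep rose by 1.33 and Nr3c2, the aldosterone receptor, by 1.10; without deficient fish oil replicate 2 only 3 members rose. Of 19 genes of fatty acid synthesis 9 rose and 1 fell, with Acss2 (2.18), Me1 (1.37), Elovl2 (1.29), Pnpla3 (1.10) and Acacb (1.00) higher, and 5 rose without deficient fish oil replicate 2 and 6 without necrotic replicate 2. Of 19 cholesterol genes 3 rose, Dhcr7 (1.78), Tm7sf2 (1.35) and Fdft1 (1.23), and 1 fell.

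Detoxifying enzymes gave the largest rise of all. Of 12 genes of glucuronidation and sulfation 8 rose and 0 fell, of 16 glutathione transferases 11 rose and 2 fell, and of 22 cytochromes P450 8 rose and 5 fell. The median of the glutathione transferases was 0.86, beside 0.57 in control fish oil minus control vegetable oil, where 1 of 16 was called. Ugt2b35, an enzyme that attaches glucuronic acid to steroids and drugs, measured 5.56 and 5.68 in the necrotic kidneys and 11.32 and 11.58 in the deficient fish oil kidneys, a difference of 5.83 ± 0.60 (adjusted p = 0.00032). Its relative Ugt2b7 differed by 5.09 ± 0.15 (adjusted p = 2.1e-06). Sult1c2 rose by 2.36, the transferases Gsta3, Gsta1 and Gsta4 by 2.93, 2.40 and 2.30, and Cyp2e1 by 3.23. Gstm5 fell (-1.62), as did the P450 Cyp1b1 (-2.67), while Cyp4f1 rose by 2.64 and Cyp1a1 by 2.38. Cross-hybridisation between such close relatives was not tested.

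Ugt2b7 and Ugt2b35 lie close together on chromosome 14, and their starts are shown because both genes rose in the main comparison. These are the 250 bases before each RefSeq gene start on build GRCr8, 5′ to 3′, with the longest stretch they share, 25 bases, in capitals; it begins at base 161 of the Ugt2b7 sequence and at base 164 of the Ugt2b35 sequence.
Ugt2b7 (chr14:21251285-21251534, plus strand): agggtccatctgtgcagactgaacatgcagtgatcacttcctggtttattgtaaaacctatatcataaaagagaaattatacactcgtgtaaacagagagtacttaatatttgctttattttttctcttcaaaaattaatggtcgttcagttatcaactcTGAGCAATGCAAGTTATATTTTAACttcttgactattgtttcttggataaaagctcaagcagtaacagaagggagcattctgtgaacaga
Ugt2b35 (chr14:21208191-21208440, plus strand): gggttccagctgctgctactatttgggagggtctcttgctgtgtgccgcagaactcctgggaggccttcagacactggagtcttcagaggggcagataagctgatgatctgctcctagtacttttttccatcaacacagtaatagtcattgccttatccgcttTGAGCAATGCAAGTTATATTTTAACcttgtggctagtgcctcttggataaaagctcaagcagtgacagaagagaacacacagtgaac
Each gene is read only against itself. Ugt2b35 measured 10.13 and 9.27 in the control vegetable oil kidneys and 5.56 and 5.68 in the necrotic kidneys. Ugt2b7 measured 6.32 and 6.00 in the control vegetable oil kidneys and 5.62 and 5.56 in the necrotic kidneys.

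NRF2 target genes, which answer oxidants and electrophiles, moved in both directions. Of 24 members, metallothioneins included, 10 rose and 2 fell, with a median of 0.32. In control fish oil minus control vegetable oil the list's median was 0.59, with 6 of 24 members called higher and 0 lower. Over all 14506 named genes that comparison called 18 higher and 19 lower. Of the 6, Abcc2 kept its call whichever of the 4 control arrays was left out. Abcc4, Nqo1, Mt1, Srxn1 and Txnrd1 kept theirs in 0 of those 4 fits. In the main comparison Osgin1 rose by 2.54, Akr7a3 by 2.39 and Ephx1 by 1.92. Hmox1, the haem-degrading enzyme, measured 11.79 and 11.46 in the necrotic kidneys and 9.63 and 8.34 in the deficient fish oil kidneys, a difference of -2.64 ± 0.47 (adjusted p = 0.0048). The deficient fish oil arrays nevertheless lay above both control vegetable oil arrays, each at 6.93, and close to the control fish oil arrays, at 8.47 and 9.64. Nqo1, a quinone reductase, measured 10.05 and 9.35 in the necrotic kidneys and 10.57 and 10.90 in the deficient fish oil kidneys (1.04 ± 0.29, adjusted p = 0.038), a call kept in 1 of the 4 fits that each left out 1 array.

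Sequences before the gene starts were read for the 14 genes with the largest differences each way. RefSeq entries on build GRCr8 were found for 12 of the rising genes (not Acmsd and Calb1) and 12 of the falling genes (not A2m and Lbp). The motifs were one arm of the palindrome bound by HNF1, a transcription factor of tubule cells, spelled GTTAAT, and the AP-1 site of Jun and Fos proteins, spelled TGANTCA, both strands read. GTTAAT stood in the 250 bases before 2 of the 12 rising genes, Acsm3 and Slc7a12, and before 2 of the 12 falling ones, Havcr1 and Fgb, against 6.46% of all 27457 promoters. TGANTCA stood before 1 rising gene, Ddc, and before 4 falling genes, Fgb, Olr1, Gpnmb and Slc16a3, against 6.36% of all promoters. The full HNF1 palindrome in this exact spelling was before none of these 24 genes, and 0.00364% of all promoters, 1 of 27457, hold it. A spelling so rare was unlikely to be met in 24 promoters, so its absence says nothing about these genes. Looser spellings were not searched. Of the falling genes Olr1, Gpnmb and Fgb, and of the rising gene Acsm3, the sequences are shown 5′ to 3′ with the matches in capitals, on either strand, as examples of promoters with a match, chosen after the matches were seen; Slc7a12, Ddc, Havcr1 and Slc16a3 also hold one and are not shown.
Olr1 (chr4:164634548-164634797, minus strand): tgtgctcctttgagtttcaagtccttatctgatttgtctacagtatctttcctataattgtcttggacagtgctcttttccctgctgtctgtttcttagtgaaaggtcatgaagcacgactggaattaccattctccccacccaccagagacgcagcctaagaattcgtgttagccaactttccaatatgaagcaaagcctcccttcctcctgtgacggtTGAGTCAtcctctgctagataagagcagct
Gpnmb (chr4:79340878-79341127, plus strand): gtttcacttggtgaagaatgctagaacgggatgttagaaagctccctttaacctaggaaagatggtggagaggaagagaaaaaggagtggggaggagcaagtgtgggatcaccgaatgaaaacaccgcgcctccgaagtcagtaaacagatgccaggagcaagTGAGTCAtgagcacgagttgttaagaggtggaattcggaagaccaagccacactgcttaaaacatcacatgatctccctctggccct
Fgb (chr2:170700876-170701125, minus strand): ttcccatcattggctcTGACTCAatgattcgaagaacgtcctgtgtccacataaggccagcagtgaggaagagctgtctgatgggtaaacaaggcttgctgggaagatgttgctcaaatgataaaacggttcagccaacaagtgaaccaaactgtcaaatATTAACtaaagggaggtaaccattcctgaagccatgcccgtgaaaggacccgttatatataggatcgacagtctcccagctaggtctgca
Acsm3 (chr1:183564402-183564651, plus strand): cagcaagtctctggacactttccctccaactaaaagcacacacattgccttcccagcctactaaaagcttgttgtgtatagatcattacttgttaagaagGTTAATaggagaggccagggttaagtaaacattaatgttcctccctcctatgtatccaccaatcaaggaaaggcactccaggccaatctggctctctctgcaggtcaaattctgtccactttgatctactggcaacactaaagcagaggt
In Fgb the first match is the AP-1 site and the second is GTTAAT read on the other strand. A match is a description of letters, and binding was not measured.

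Where the deficient fish oil kidneys ended up was read against the controls. Of the 5763 probe sets called, 52.2% had both deficient fish oil arrays within the range of the 4 control arrays, 5.76% had both above and 6.18% both below it, beside 49.7%, 5.79% and 5.07% of all probe sets. Among the 253 that were at least 4-fold higher, 58.5% lay within the control range, and among the 209 that were at least 4-fold lower 49.8% did. Havcr1, Fga and Angptl4 are examples above the range, and Acmsd, Ddc and Klk1b3 lay below it by small margins: Acmsd measured 12.12 and 12.08 against control arrays from 12.17 to 12.51, and Klk1b3 13.51 and 13.53 against 13.58 to 13.62. Deficient fish oil minus control fish oil, the choline effect within that oil, passed limma's test for 0 of 29214 probe sets (0%), while 1036 had an unadjusted p under 0.05. Without deficient fish oil replicate 1, 2 passed. With 2 pools a group a p that misses the threshold does not show that these kidneys were alike.

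Part of the contrast was shared with the vegetable oil kidneys that lacked the necrosis label. In deficient vegetable oil minus necrotic kidneys 7.8% of genes were higher and 6.41% lower. This comparison uses the same 2 necrotic arrays, so the values are given side by side. It equals, with sign, deficient fish oil minus necrotic less deficient fish oil minus unlabelled vegetable oil kidneys. It does not test which of these 2 differences is larger in size. Over probe sets it called 2860, which became 1040 without deficient vegetable oil replicate 1, 1312 without necrotic replicate 2 and 1798 without necrotic replicate 1. Nephron genes were higher in both. Egf differed by 4.81 from necrotic kidneys in the fish oil group and by 4.57 (adjusted p = 7.4e-06) in the unlabelled vegetable oil group, Slc34a1 by 3.36 and 3.26, Umod by 3.09 and 3.11, and Acsm3 by 4.43 and 3.81. Of 37 proximal tubule genes 32 were higher in the fish oil kidneys and 33 in the unlabelled vegetable oil kidneys, and of 20 matrix genes 18 and 17 were lower.

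Injury genes showed a different layout. Of 29 tubular injury genes 26 were lower in the fish oil kidneys and 7 in the unlabelled vegetable oil kidneys. Of 26 immediate early genes the numbers were 15 and 0, and of 15 interleukin 6 family genes 9 and 0. In the same order, the list medians were -1.49 and -0.48 for tubular injury, -0.74 and 0.03 for immediate early and -0.8 and -0.28 for interleukin 6 family genes. Havcr1 in the unlabelled vegetable oil kidneys measured 11.82 and 13.11, a difference from necrotic of -0.92 (adjusted p = 0.43) beside -5.13. Fgg differed by -1.09 (adjusted p = 0.10) beside -6.04, Fgb by -0.42 (adjusted p = 0.55) beside -4.19, and Olr1 by -0.03 (adjusted p = 0.96) beside -4.02. Atf3 was higher in the unlabelled vegetable oil kidneys than in the necrotic ones, by 1.14 (adjusted p = 0.022), and lower in the fish oil kidneys, with a difference of -2.54. Kng1 had the same layout, with 1.26 (adjusted p = 0.014) beside -2.12. Macrophage genes were mixed: 9 of 24 were lower and 2 higher in the unlabelled kidneys against 19 and 0 in the fish oil kidneys, with Mrc1 at -3.01 beside -3.39 and Cd68 at -1.40 beside -2.87.

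The effect of oil without choline deficiency was measured on 4 other arrays, control fish oil minus control vegetable oil, which share no array with the main comparison. It called 25 probe sets higher and 29 lower, 0.185% of those tested. Of those 25, 14 were also higher in deficient fish oil than in necrotic kidneys, which is 56% of the smaller list and 0.518% of the larger. Of the 29 lower, 15 were also lower, 51.7% and 0.49%. Over all 29214 probe sets the main comparison called 2701 higher and 3062 lower, and over all named genes it called 13.1% higher and 14.2% lower. In genes, 37 were called between the control oils: 11 were higher and 8 lower in both comparisons, 15 were called between the control oils alone and 3 were called in opposite directions. The calls between the control oils were fragile, with 3 to 6 probe sets left when any 1 of the 4 control arrays was dropped, 3 of them without control fish oil replicate 1.

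Ugt2b7 had differences of like size in both. It measured 6.32 and 6.00 in control vegetable oil kidneys and 11.52 and 11.23 in control fish oil kidneys, a difference of 5.22 (adjusted p = 3.4e-06) beside 5.09 in the main comparison, and the 2 differences differed by -0.13 (adjusted p = 0.76). All 6 vegetable oil arrays lay at or below 6.32 and all 4 fish oil arrays at or above 10.63. Csmd1, a large membrane protein with complement-control domains, differed by 2.78 between the control oils and by 2.51 in the main comparison. Abcc2, an efflux pump for conjugates, differed by 2.44 and 1.87. These 3 genes kept their control oil call whichever of the 4 control arrays was left out. Creb3l3, a transcription factor of lipid metabolism, differed by 2.05 and 2.14, but its control oil call was kept in 1 of those 4 fits. Acaa1b, a peroxisomal thiolase, differed by 1.43 between the control oils and 2.64 in the main comparison, and the difference between them, 1.21, passed the test (adjusted p = 0.032). It also passed for 3 other genes higher in both comparisons. Nqo1 differed by 3.26 between the control oils and 1.04 in the main comparison (difference between them -2.23, adjusted p = 0.014), Gstp1 by 1.75 and 0.49 (-1.25, adjusted p = 0.0052), and Vnn1 by 0.94 and 1.71 (0.77, adjusted p = 0.029). The control oil call was kept in 0 of the 4 fits for Nqo1 and Vnn1 and in 2 for Gstp1, and the main call of Nqo1 and of Gstp1 was kept in 1 of 4. Among genes lower in both, Rrm2 differed by -2.37 and -3.34, Mmp9 by -2.08 and -1.77, Lum by -1.30 and -2.02, and Nnat by -1.13 and -1.82. The control oil calls of Acaa1b, Rrm2, Mmp9, Lum and Nnat were lost without any 1 of the 4 control arrays.

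**Figure D4:**
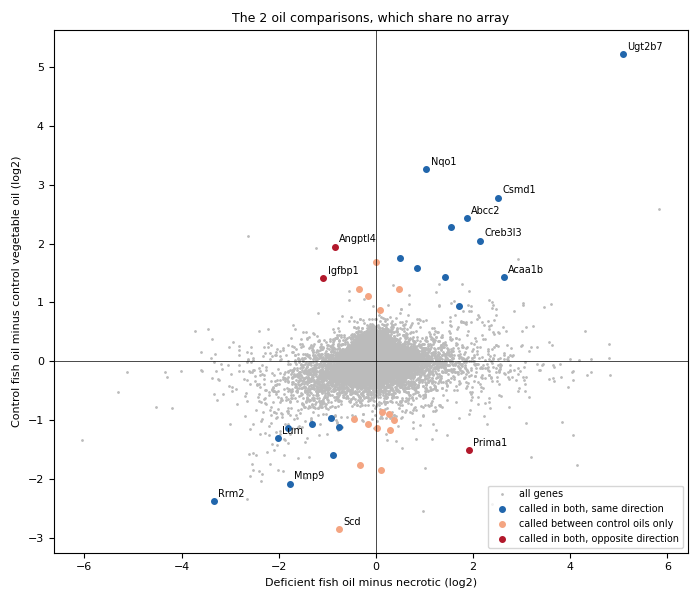
Each point is 1 named gene, with its log2 difference of deficient fish oil minus necrotic (horizontal axis) and of control fish oil minus control vegetable oil (vertical axis). Coloured points are the 37 genes called between the control oils: 19 called in the same direction in both comparisons, 3 in opposite directions and 15 not called in the main comparison. Most genes with large differences from the necrotic kidneys lie near 0 on the vertical axis, and Ugt2b7 is far out on both.

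A few genes were called in opposite directions by the 2 comparisons. Angptl4, a PPAR target, measured 7.79 and 8.31 in control vegetable oil kidneys, 10.11 and 9.87 in control fish oil kidneys, 10.40 and 10.22 in deficient fish oil kidneys and 11.11 and 11.19 in necrotic kidneys. It was therefore lower in the main comparison (-0.84) and higher between the control oils (1.95, adjusted p = 0.012), and its call in the main comparison was lost without any 1 of the 4 arrays. Igfbp1, a binding protein for insulin-like growth factors, followed the same order in its means, with -1.08 and 1.41. Prima1, a membrane anchor of acetylcholinesterase, had the opposite signs, with 1.92 in the main comparison and -1.51 between the control oils. The control oil calls of Igfbp1 and Prima1 were kept in none of the 4 fits without 1 control array, and that of Angptl4 in 1. Over all probe sets the difference between the 2 comparisons, an interaction added after the data had been seen, passed the test for 8.72%.

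**Figure D5:**
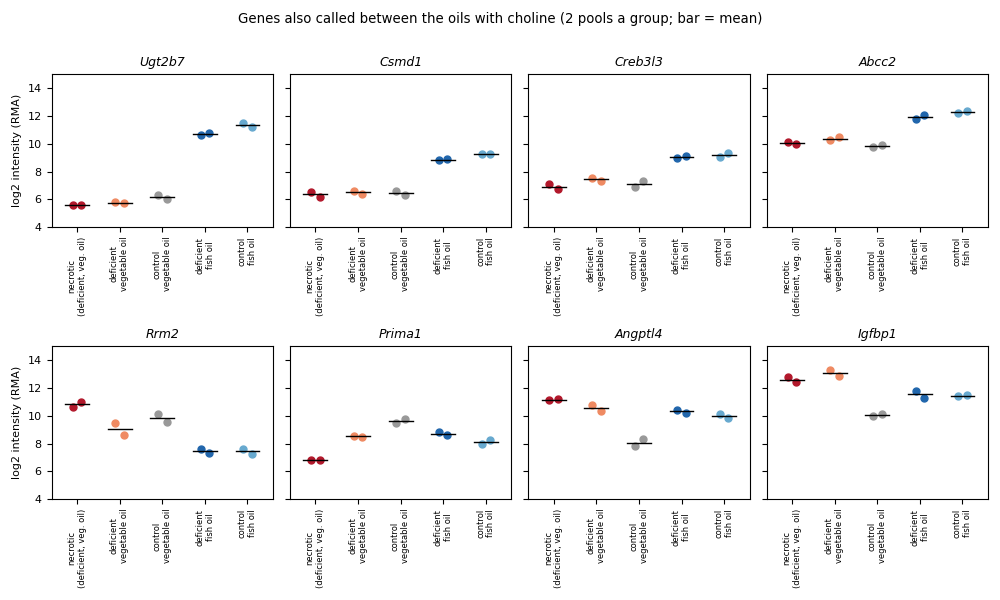
Log2 intensity (vertical axis) of 8 genes called in both oil comparisons, on each of the 10 arrays by group (horizontal axis); points are pools of 3 animals and bars are means of 2. Ugt2b7, Csmd1, Creb3l3 and Abcc2 were higher on all 4 fish oil arrays than on all 6 vegetable oil arrays, and Rrm2 was lower.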

How the data were processed

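Kidney RNA of 10 pools was extracted with Trizol, labelled with the Ambion WT Expression Kit and hybridised to 1 array each, per the labels' protocols. The authors deposited log2 intensities per probe set made with RMA, per the submitters' processing notes; the software, its version, the probe set definition and the genome build were not given in the sources used. RMA gives all arrays like distributions, which can hide a shift of all genes. Values (1.62 to 14.72) were used unfiltered. Of 29214 probe sets 15310 had 1 gene symbol in the platform annotation, 323 had several and 13581 were not listed; these named 14506 genes, 527 with more than 1 probe set, of which the one with the highest mean was taken. Names of 15279 probe sets matched the GRCr8 gene table by Entrez number.

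All 5 groups were fitted in limma 3.58.1 (R 4.3.3, lmFit and eBayes, 5 residual and 3.59 prior degrees of freedom), and p-values were adjusted by Benjamini-Hochberg over all probe sets, threshold 0.05. Fits were tested on simulated data. The replicate numbers are not stated to pair the samples, so the main fit held no replicate block. Deviations of necrotic and deficient fish oil arrays of like number correlated at 0.06, and those of all pairs of groups at -0.17 to 0.14. Such values cannot show that arrays of like number shared no batch. The comparison, the 50 gene lists and the tests were chosen with earlier results of these data known. Genes were named by a rule: the 14 largest called differences each way, up to 5 called members of each list with the largest differences (up to 3 where fewer than 5 were called), 10 genes given by name (among them Havcr1, Egf and Kl) and the 8 largest differences, 4 each way, shared with the control oils. Other genes named, such as Fga, Hp, Cubn, Atp6v1b1, Ccl2, Il6, Abcc2, Nqo1, Angptl4, Igfbp1 and Prima1, and list members that were not called, were chosen after their values were seen. Alternatives were other scalings, filters on dim probe sets, a trended and robust prior, a fit of only the groups compared, a replicate block and leaving out each array. Sequence matches and figures came from Python (3.11.15) with matplotlib (3.10.9), pandas (2.3.3) and numpy (2.4.6).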

Additional observations from a re-analysis of the deposited data

Results flagged for a closer look

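The difference between the oil comparisons, deficient fish oil minus necrotic less control fish oil minus control vegetable oil, passed limma's test for 2548 probe sets, 1431 of them positive and 1117 negative. For Acaa1b, higher in both, this difference was 1.21 (adjusted p = 0.032). For 3 other genes higher in both it was -2.23 (Nqo1, adjusted p = 0.014), -1.25 (Gstp1, adjusted p = 0.0052) and 0.77 (Vnn1, adjusted p = 0.029).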

How the results depend on the processing

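The main count of 5763 calls was 4481 to 6281 under other scalings, filters, priors, the fit of only 2 groups and the replicate block, and 3324 to 4254 without 1 of its 4 arrays. Its higher calls were 1504 to 1984 and its lower calls 1747 to 2336 without 1 array; median centring gave 3483 higher and 2282 lower. With the replicate block it was 5503; the block changed no other count by over 1.5 times, and the control oil call of Nnat and the main call of Lipe were lost with it.

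Deficient vegetable oil minus necrotic had 2860 calls, 654 with only its 2 groups fitted, and 1040 to 3125 without 1 array. Control fish oil minus control vegetable oil had 54 calls, 115 and 118 with dim probe sets filtered at the 25 and 50 percentile, 124 with a trended and robust prior, 5 with only 2 groups and 3 to 6 without 1 array. Deficient fish oil minus control fish oil had 0 to 2 calls without 1 array. Of the 50 list medians, 23 kept their sign but moved under median centring by at least the spread between replicate arrays. The same held for 10 after quantile normalization, 3 after cyclic loess and 24 with only genes at or above the 50 percentile. The lymphocyte median of -0.04 became 0.07 after median centring and 0.02 after quantile normalization. The cause of these changes was not tested.

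Of 234 named differences, all called, 24 lost their call without some array, and 2 pools a group limit the precision.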
